A study of Mus musculus with 9 samples.

Results

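The genes described here were 33 products and regulators of the acinar cells of the pancreas, of 56941 genes in the count table. They were chosen by name, as digestive enzymes, other granule proteins, transcription factors, 1 receptor and 1 metabolic enzyme. The list held 6 lipid-digesting proteins (Pnlip, Pnliprp1, Pnliprp2, Clps, Cel, Pla2g1b), 12 proteases, 2 amylases (Amy1, Amy2a5), 7 granule or other secreted proteins, 4 transcription factors (Ptf1a, Rbpjl, Bhlha15, Nr5a2), Gatm and Cckar. RNA was sequenced from islets of wild-type male C57BL/6J mice, which were 15 weeks old when their diets began and ate 1 of 3 diets for 9 months. The low fat diet (LFD) held 10% fat and had 3 libraries, the high fat diet (HFD) 60% fat and 2 libraries, and the ketogenic diet (KD) 89.9% fat and 4 libraries. The study asked how a ketogenic diet affects islet transcripts. The labels did not say whether each library came from a separate animal, so p-values measure only the spread between these libraries, which may be technical.

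Acinar cells surround the islets and make the pancreatic juice. They store lipases, amylases and inactive precursors of proteases in zymogen granules and release them when cholecystokinin or acetylcholine reaches the cell. The PTF1 complex, which contains Ptf1a and Rbpjl, switches on most digestive enzyme genes together with Nr5a2 and the granule regulator Bhlha15. Islets are freed from this tissue by digestion and picking. Digestive enzyme transcripts in an islet library come mainly from acinar cells or their RNA that stayed in the preparation. Whether the regulators, Gatm and Cckar came only from acinar cells was not tested. Pancreatic enzyme content is known to follow the nutrients of the diet, with more lipase on fat and more amylase on starch.

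The upstream sequences of 4 members are shown because the shares of Pnlip and Ctrb1 in acinar RNA were higher on KD than on LFD, and those of Cela1 and Amy2a5 were lower. Each is the 250 bases before the gene's start, 5′ to 3′ on the gene's strand, from RefSeq on build GRCm38.p6. Pnlip lies at chr19:58670115-58670364 (+ strand), Ctrb1 at chr8:111691011-111691260 (− strand), Cela1 at chr15:100687921-100688170 (− strand) and Amy2a5 at chr3:113258700-113258949 (− strand). Capitals mark matches, searched on both strands, to CACCTG (an E-box as bound by PTF1), TTTCCC (the TC-box that PTF1 binds beside it), AAGGTCA (the core bound by Nr5a2) and TATAAA. None of these motifs contains another.
Pnlip: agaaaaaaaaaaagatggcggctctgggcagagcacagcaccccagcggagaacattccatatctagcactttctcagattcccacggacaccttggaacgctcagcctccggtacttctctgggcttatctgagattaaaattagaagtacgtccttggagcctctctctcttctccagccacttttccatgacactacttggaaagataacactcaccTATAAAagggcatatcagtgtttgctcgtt
Ctrb1: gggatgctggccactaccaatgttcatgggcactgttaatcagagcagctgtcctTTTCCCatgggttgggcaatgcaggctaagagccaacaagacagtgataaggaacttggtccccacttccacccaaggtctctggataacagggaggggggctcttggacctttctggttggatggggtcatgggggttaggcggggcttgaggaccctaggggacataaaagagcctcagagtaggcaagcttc
Cela1: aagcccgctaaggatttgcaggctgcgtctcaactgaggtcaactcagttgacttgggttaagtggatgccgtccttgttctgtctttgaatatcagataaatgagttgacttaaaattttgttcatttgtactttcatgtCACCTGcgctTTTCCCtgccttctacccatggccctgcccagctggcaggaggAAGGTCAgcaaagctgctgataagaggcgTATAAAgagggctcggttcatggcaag
Amy2a5: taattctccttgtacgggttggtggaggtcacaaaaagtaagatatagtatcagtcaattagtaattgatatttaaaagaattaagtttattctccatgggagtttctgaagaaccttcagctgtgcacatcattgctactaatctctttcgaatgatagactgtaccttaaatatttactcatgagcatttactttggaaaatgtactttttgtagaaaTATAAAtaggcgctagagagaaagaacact
All 4 motifs lay in the Cela1 window, with CACCTG 109, TTTCCC 99, AAGGTCA 56 and TATAAA 27 bases before the start. The Pnlip and Amy2a5 windows held only TATAAA, 30 bases before the start in both, and the Ctrb1 window held only TTTCCC, 195 bases before it. RefSeq sequences matched 27 of the 33 members; Clps, Ctrc, Try5, Zg16, Spink1 and Cckar had no entry. CACCTG was present in 15 of the 27, against 17.2% of 32851 windows of this length. TTTCCC was present in 7 (21.9% of all windows), AAGGTCA in 4 (4.08%) and TATAAA in 9 (12.4%). CACCTG and TTTCCC stood together in Cel, Cela1, Cela2a, Prss1 and Prss2, which is 5 of the 27, against 3.61% of all windows. A match describes letters in the window and was not measured as a binding site.

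Library totals ran from 15513502 to 26588390 counts. The 33 members together, called the acinar total here, took 35.6%, 25.0% and 15.1% of all counts on LFD and 18.9% and 11.3% on HFD. They took 60.6%, 44.6%, 56.3% and 20.4% in KD replicates 1 to 4. KD replicate 4 stood apart from the other KD libraries and lay inside the LFD range, and the KD minus LFD difference in means was 20.2 percentage points with it and 28.6 without it. In bulk samples, fewer cells of a type and less RNA per cell cannot be told apart. Mitochondrial transcripts took 0.375% to 1.38% of counts on KD, 1.58% to 2.37% on LFD and 1.505% to 2.65% on HFD.

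Duct and lymphocyte markers also differed between the diets. The beta cell markers, 10 genes led by Ins1 and Ins2, were summed in counts-per-million units (CPM) of TMM-scaled library size. They reached 54393 to 75694 on LFD, 77453 to 105380 on HFD and 31045 to 109900 on KD. Beta cell transcripts were thus present in every library, beside an acinar total of up to 60.6% of counts (KD replicate 1). Of 9 duct markers, 5 were lower on KD than on LFD in edgeR's quasi-likelihood test with Benjamini-Hochberg adjustment over all genes. By that test 3.14% of all genes were lower on KD and 0.981% higher. The duct markers summed to 469 to 586 CPM on LFD, 316 to 342 on HFD and 316 to 470 on KD. All 9 B lymphocyte markers were lower on KD, with sums of 29.0 to 146 CPM on LFD, 3.70 to 4.99 on HFD and 1.158 to 2.57 on KD. The 7 T lymphocyte markers, of which 5 were lower on KD, summed to 3.89 to 30.2 CPM on LFD, 1.30 to 1.75 on HFD with Cd8a at 0, and 0.534 to 1.66 on KD. Of 7 macrophage and 5 delta or PP cell markers 1 each was lower on KD, and none of the alpha, beta, endothelial or fibroblast lists passed. The part of these cells in the values below was not tested.

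The make-up of the acinar RNA differed between the diets. Amylase was 7.33-fold lower in the acinar total of KD than of LFD libraries, lipid-digesting transcripts were higher and protease transcripts lower. Among the proteases, Ctrb1 was higher, and the elastases Cela1 and Cela2a were lower, while Cela3b was higher. Of the transcription factors, Nr5a2 was lower. These shares are percentages of the summed counts of the 33 members, so that a higher share of 1 member lowers the others, and they need no scaling between libraries. No p-value is given for a sum over members.

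**Figure D1:**
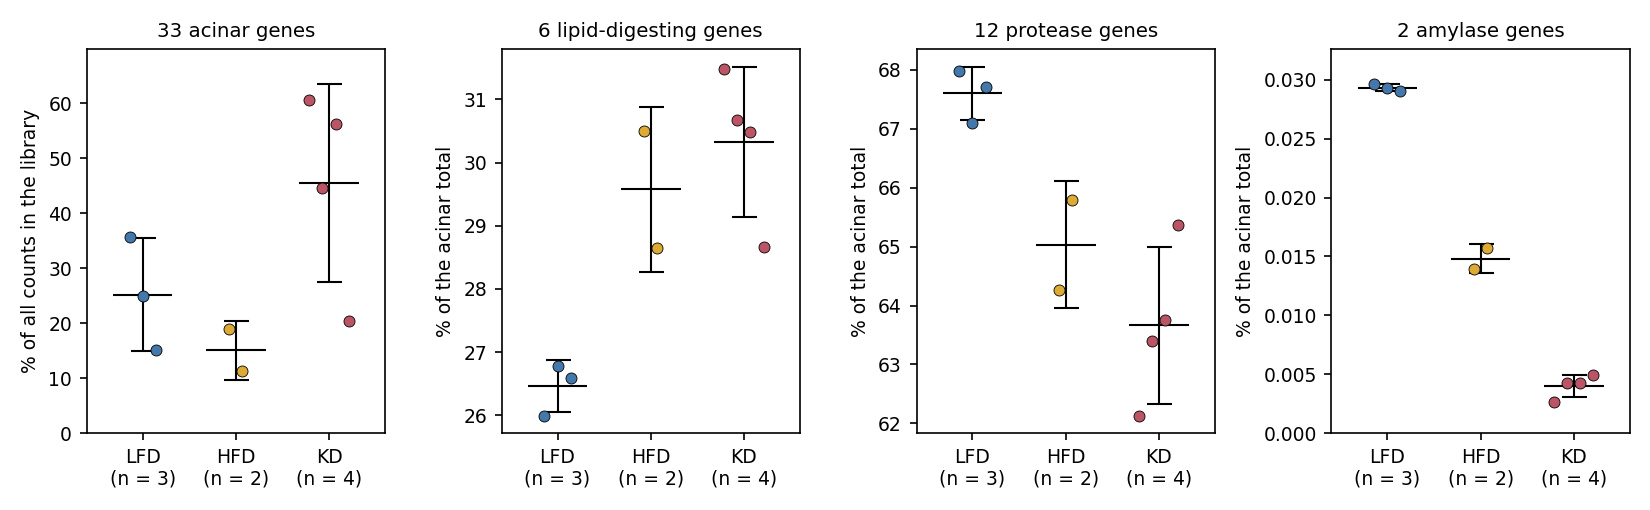
The acinar total as a percentage of all counts (left) and 3 enzyme classes as percentages of the acinar total, with 1 point per library and horizontal lines with bars for the mean ± SD; the axes of the 2 middle panels do not start at 0. The acinar totals of KD and LFD overlap, while the class shares of KD and LFD lie apart, with amylase at 0.0290% to 0.0296% on LFD and 0.00263% to 0.00490% on KD.

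Lipid-digesting transcripts made up 26.0%, 26.8% and 26.6% of the acinar total on LFD, 30.5% and 28.7% on HFD, and 31.5%, 30.7%, 30.5% and 28.7% on KD. The means were 26.5% ± 0.413 (SD, n = 3), 29.6% ± 1.31 (SD, n = 2) and 30.3% ± 1.19 (SD, n = 4). Every HFD and KD library lay above every LFD library, and HFD and KD overlapped. The KD minus LFD difference was 3.87 percentage points by counts and 1.43 points by counts per kilobase of exon, where KD replicate 4 at 20.1% lay inside the LFD range of 19.5% to 20.5%.

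Pnlip, the main triglyceride lipase of the pancreas, took 9.72%, 9.61% and 9.86% of the acinar total on LFD, 11.7% and 10.0% on HFD, and 12.6%, 12.2%, 12.2% and 10.5% on KD. All KD libraries were above all LFD libraries, with a 1.22-fold higher mean and an exact two-sided permutation p of 0.0571 over 35 splits. Pnliprp1, a lipase-related protein with little known lipase activity, took 3.36%, 3.32% and 3.32% on LFD, 4.80% and 4.38% on HFD, and 3.90%, 4.17%, 3.77% and 3.68% on KD. It was highest on HFD, with no overlap between any 2 diets, and for KD against LFD the exact permutation p was 0.0286, the smallest that 35 splits can give. Pnliprp2, which also cleaves galactolipids and phospholipids, took 0.778%, 0.774% and 0.690% on LFD, 0.538% and 0.541% on HFD, and 0.725%, 0.758%, 0.686% and 0.671% on KD. The 3 related lipases thus had 3 orders of the diets: Pnlip was higher on both fat diets, Pnliprp1 was highest on HFD, and Pnliprp2 was lowest on HFD with KD and LFD overlapping.

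Cel, which cleaves cholesterol esters and other bile-salt-dependent substrates, took 10.1%, 11.003% and 10.6% on LFD, 11.6% and 11.4% on HFD, and 11.9%, 11.2%, 11.3% and 11.6% on KD. The KD mean was 1.09-fold above LFD without overlap (exact permutation p = 0.0286). Clps, the colipase that anchors Pnlip at the fat droplet, took 1.95%, 1.99% and 2.09% on LFD, 1.80% and 2.23% on HFD, and 2.23%, 2.26%, 2.39% and 2.09% on KD. The Clps ranges of all diets overlapped, so it did not separate with Pnlip. Pla2g1b, the secreted phospholipase A2, went the other way, at 0.0889% to 0.0949% on LFD, 0.0373% to 0.0544% on HFD and 0.0562% to 0.0780% on KD. It was the lowest of the lipid-digesting members by share and was named after its values were seen.

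Amylase transcripts differed most between the diets, by fold, and were among the rarest enzymes in these counts. For rare members the share is given as acinar CPM, which is CPM with the acinar total in place of the library size. Amy2a5, a pancreatic amylase (ENSMUSG00000074268), had 151, 151 and 119 acinar CPM on LFD, 46.0 and 45.6 on HFD, and 4.79, 10.0, 13.3 and 12.1 on KD. The 3 diets did not overlap: the mean was 14.0-fold lower on KD and 3.06-fold lower on HFD than on LFD, and the exact permutation p for KD against LFD was 0.0286. The 95% Wilson intervals did not overlap between diets either, and ran from 106 to 162.5 on LFD, from 36.7 to 56.6 on HFD and from 3.79 to 16.04 on KD. Such intervals cover counting error only. KD replicate 4, with 47 Amy2a5 counts, had an interval of 9.07 to 16.04.

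Amy1, the salivary and liver amylase gene, had 145, 142.5 and 172 acinar CPM on LFD, 93.4 and 111 on HFD, and 21.5, 32.4, 29.0 and 36.9 on KD. Its mean was 5.11-fold lower on KD and 1.496-fold lower on HFD than on LFD, without overlap between diets (exact permutation p = 0.0286 for KD against LFD). Amylase genes share sequence with other genes of the GENCODE M21 transcripts. Of the 50-base stretches of Amy2a5 transcripts 53.5% occur in another gene, and of those of Amy1 33.3%. The genes sharing most were Amy2a3 and Amy2a2 for Amy2a5, and Amy2b and Rnpc3, which is not an amylase, for Amy1. The assignment of reads shared by copies is not given in the sources used here, and the levels hold an unknown part of the amylase reads. Amy2b, a further amylase outside the 33 members, had 678, 1095 and 481 acinar CPM on LFD, 159 and 306 on HFD, and 14.8, 22.4, 42.5 and 50.5 on KD. Amy2a1, also outside the members, had 194, 239 and 195 on LFD, 125 and 79.0 on HFD, and 49.6, 75.7, 84.4 and 90.8 on KD. Its HFD and KD libraries overlapped. Scaled by TMM, its edgeR log2 fold change for KD against LFD was 0.03 (SE 0.58, adjusted p = 0.980). All amylase genes in the lists together had 1170, 1628 and 966 on LFD, 424 and 542 on HFD, and 91.9, 141, 169 and 190 on KD. The order of the diets was the same for this sum, but the genes differed in how far they separated the diets.

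**Figure D2:**
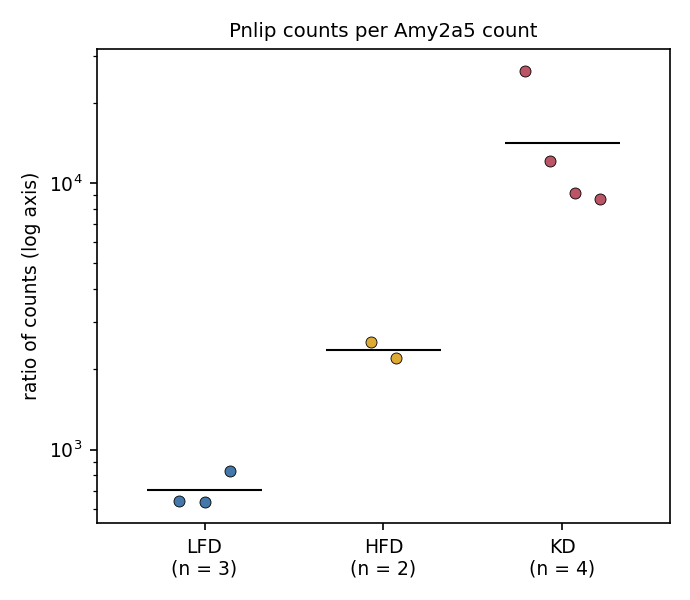
Pnlip counts per Amy2a5 count in each library, on a log axis, with horizontal lines for the mean of each diet. The LFD libraries sit between 638 and 831, the HFD libraries at 2195 and 2542, and the KD libraries between 8737 and 26336.

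The ratio of Pnlip to Amy2a5 counts needs no library scaling. It was 643, 638 and 831 on LFD, 2542 and 2195 on HFD, and 26336, 12133, 9198 and 8737 on KD. The diets stood in the order LFD, HFD, KD with no overlap. The mean log2 ratio was 4.18 higher on KD than on LFD, which is 18.1-fold (exact two-sided permutation p = 0.0286, 35 splits, n = 3 and 4, higher in 4 of 4 KD libraries). With all amylase genes as the denominator, an alternative added after the data were seen, the difference was 3.39. Leaving out 1 library gave differences of 3.83 to 4.36, with p of 0.0667 or 0.1, which are the smallest such smaller designs allow.

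Protease transcripts made up 68.0%, 67.1% and 67.7% of the acinar total on LFD, 64.3% and 65.8% on HFD, and 62.1%, 63.4%, 63.8% and 65.4% on KD. The difference between KD and LFD was -3.94 percentage points by counts and -2.40 by counts per kilobase. The protease families differed in direction. The 3 elastases took 19.8%, 21.4% and 22.6% on LFD, 15.7% and 19.8% on HFD, and 12.4%, 13.9%, 13.8% and 15.0% on KD, with all 4 KD libraries lying below all LFD libraries. The 3 chymotrypsin genes (Ctrb1, Ctrc, Ctrl) took 17.4%, 18.3% and 18.8% on LFD, 20.1% and 19.5% on HFD, and 23.996%, 21.1%, 22.04% and 22.4% on KD. All 4 KD libraries lay above all LFD and HFD libraries for the chymotrypsins. The 2 carboxypeptidases took 14.7% to 15.7% on LFD, 14.5% in both HFD libraries and 13.1% to 14.4% on KD. The 4 trypsinogens overlapped, at 11.6% to 15.2% on LFD, 12.02% to 14.01% on HFD and 12.6% to 14.7% on KD.

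Ctrb1, the main chymotrypsinogen (ENSMUSG00000031957), took 14.0%, 14.4% and 14.7% of the acinar total on LFD, 16.2% and 15.5% on HFD, and 19.7%, 17.3%, 18.1% and 18.7% on KD. Its mean was 1.29-fold higher on KD than on LFD (exact permutation p = 0.0286). Cela1, an elastase precursor (ENSMUSG00000023031), took 8.19%, 8.27% and 8.398% on LFD, 5.12% and 6.99% on HFD, and 4.08%, 4.91%, 4.64% and 4.498% on KD. Its mean was 1.83-fold lower on KD than on LFD, and neither gene overlapped between any 2 diets (exact permutation p = 0.0286). The count of Ctrb1 per count of Cela1, a ratio chosen after the values were seen and not tested, was 1.71, 1.74 and 1.75 on LFD, 3.17 and 2.22 on HFD, and 4.82, 3.52, 3.91 and 4.16 on KD.

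The other elastases were singled out after their values were seen. Cela2a took 8.52%, 10.1% and 10.7% on LFD, 7.09% and 8.91% on HFD, and 3.93%, 5.36%, 5.01% and 6.02% on KD, a mean 1.93-fold lower on KD than on LFD (exact permutation p = 0.0286). Cela3b took 3.05%, 3.08% and 3.49% on LFD, 3.45% and 3.92% on HFD, and 4.42%, 3.60%, 4.11% and 4.44% on KD, a mean 1.29-fold higher on KD (exact permutation p = 0.0571). The elastases therefore did not share a direction. Cela3b shares 19.2% of its 50-base stretches with Cela3a, and Cela2a and Ctrc share 15.6% and 17.7% of theirs with each other, so their levels are less certain than that of Cela1, which shares none.

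Cpa1, the carboxypeptidase that removes aromatic and aliphatic end residues, took 6.84%, 7.33% and 7.29% on LFD, 7.23% and 7.69% on HFD, and 6.45%, 6.53%, 6.51% and 6.48% on KD. It was 1.102-fold lower on KD than on LFD with no overlap (exact permutation p = 0.0286). Cpb1, which removes basic end residues, overlapped, at 7.43% to 8.83% on LFD, 6.81% to 7.30% on HFD and 6.62% to 7.88% on KD. Prss2, an anionic trypsinogen, took 8.17%, 7.30% and 6.73% on LFD, 7.74% and 7.46% on HFD, and 7.92%, 7.82%, 7.49% and 7.78% on KD, and the diets were not separated. Of the other proteases, Ctrl, Prss1, Try4 and Try5 also overlapped between KD and LFD, while Ctrc was lower, at 0.0376% to 0.0692% on LFD and 0.0186% to 0.0369% on KD. The trypsinogens are close copies, with 65.6% of Try4, 54.9% of Prss1, 47.6% of Try5 and 7.83% of Prss2 stretches found in another gene.

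**Figure D3:**
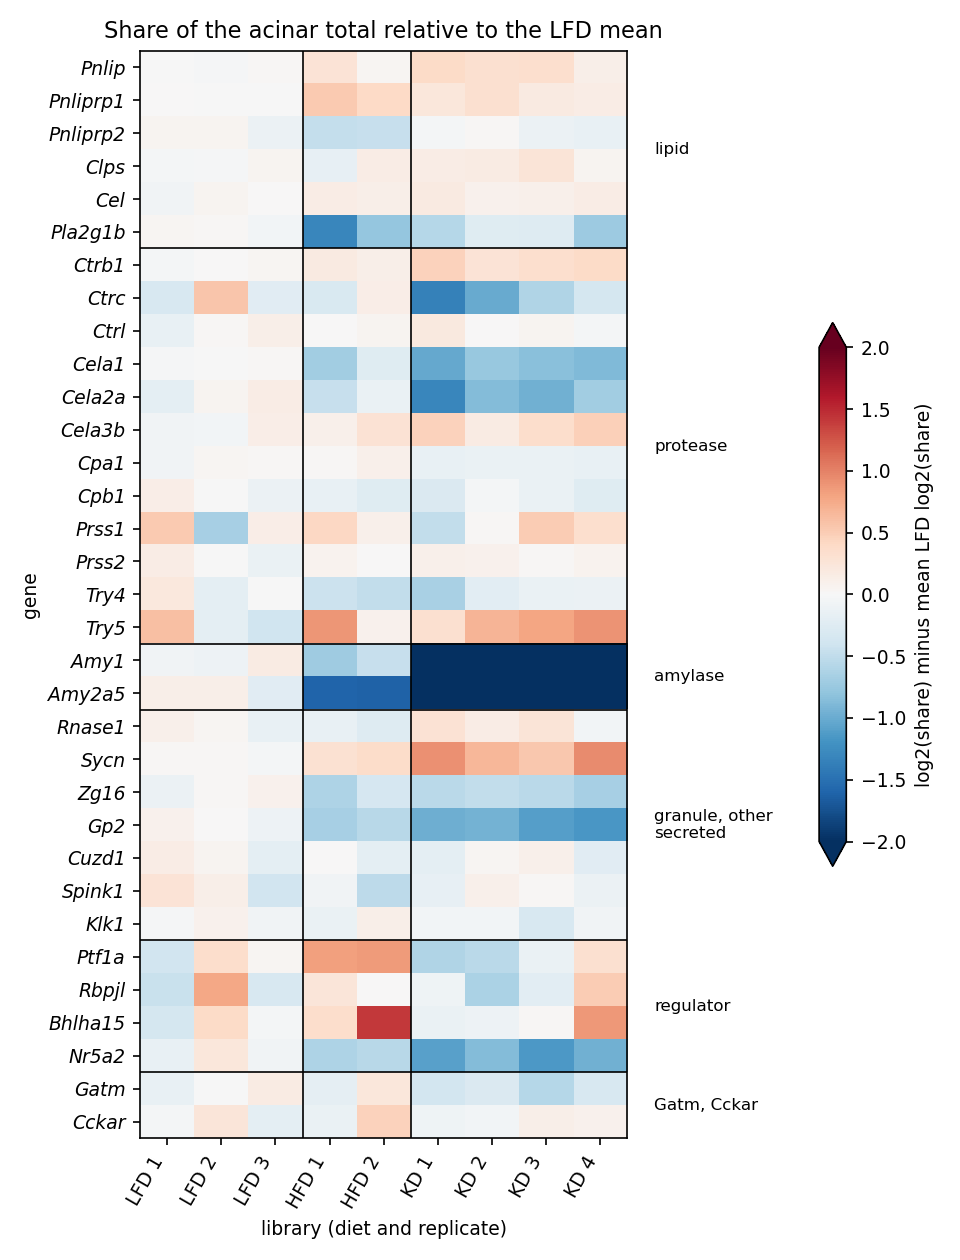
Share of the acinar total of each of the 33 members in each library, as log2 of the share minus the mean log2 share of the LFD libraries, with colours ending at -2 and 2 and members grouped by class. The 2 amylases are the darkest rows on KD, Cela1, Cela2a, Gp2 and Nr5a2 are lower in all 4 KD libraries, and Sycn and Ctrb1 are higher in all 4.

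Granule and other secreted proteins took 5.40% to 5.77% of the acinar total on LFD, 4.95% to 5.17% on HFD and 5.53% to 6.17% on KD. Within this class, 3 members were apart between KD and LFD, and they were singled out after their values were seen. Sycn, syncollin of the granule membrane, took 1.22%, 1.21% and 1.161% on LFD, 1.47% and 1.55% on HFD, and 2.27%, 1.90%, 1.73% and 2.30% on KD, a mean 1.71-fold higher on KD than on LFD. Gp2, the main membrane glycoprotein of the zymogen granule, took 0.945%, 0.890% and 0.8294% on LFD, 0.561% and 0.602% on HFD, and 0.449%, 0.461%, 0.413% and 0.398% on KD, a mean 2.07-fold lower. Zg16, a granule lectin, took 1.18%, 1.29% and 1.36% on LFD, 0.835% and 1.01% on HFD, and 0.882%, 0.906%, 0.876% and 0.801% on KD, a mean 1.47-fold lower. Each of these had an exact permutation p of 0.0286 for KD against LFD. Sycn and Gp2, both of the granule membrane, thus stood on opposite sides. Spink1, the trypsin inhibitor, overlapped, at 0.0258%, 0.0231% and 0.0165% on LFD, 0.0203% and 0.0148% on HFD, and 0.0192%, 0.0231%, 0.0219% and 0.0198% on KD. Rnase1, Cuzd1 and Klk1 also overlapped between KD and LFD.

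Of the 4 transcription factors, Nr5a2 was the one whose KD and LFD shares were apart. Nr5a2, a nuclear receptor of the acinar programme (ENSMUSG00000026398), had 171, 221 and 179 acinar CPM on LFD, 123 and 130 on HFD, and 89.6, 104, 85.7 and 97.2 on KD. The diets did not overlap, and the mean was 2.02-fold lower on KD than on LFD (exact permutation p = 0.0286). Ptf1a, the DNA-binding subunit of PTF1, had 30.4, 50.7 and 41.0 on LFD, 70.7 and 71.7 on HFD, and 26.3, 27.4, 36.4 and 49.5 on KD. It was highest in the HFD libraries, and KD and LFD overlapped. Its counts per library were few, between 105 and 379, and the 95% Wilson interval reached from 60.4 to 85.2 in the 2 HFD libraries and from 26.1 to 57.7 on LFD.

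Rbpjl, the acinar partner of Ptf1a, had 470, 1094 and 516 acinar CPM on LFD, 760 and 646 on HFD, and 606, 413, 553 and 916 on KD. Bhlha15 (Mist1), which organises granules and secretion, had 357, 596 and 442 on LFD, 581 and 1212 on HFD, and 413, 425, 463 and 832 on KD. Both overlapped between KD and LFD. Cckar, the cholecystokinin receptor, had 449, 542 and 401 on LFD, 419 and 633 on HFD, and 435, 441, 498 and 488 on KD, again with overlap. Gatm, which makes the creatine precursor guanidinoacetate, had 754, 834 and 935 on LFD, 739 and 983 on HFD, and 652, 686, 566 and 669 on KD. Its KD libraries were all below the LFD libraries, with a mean 1.31-fold lower (exact permutation p = 0.0286).

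**Figure D4:**
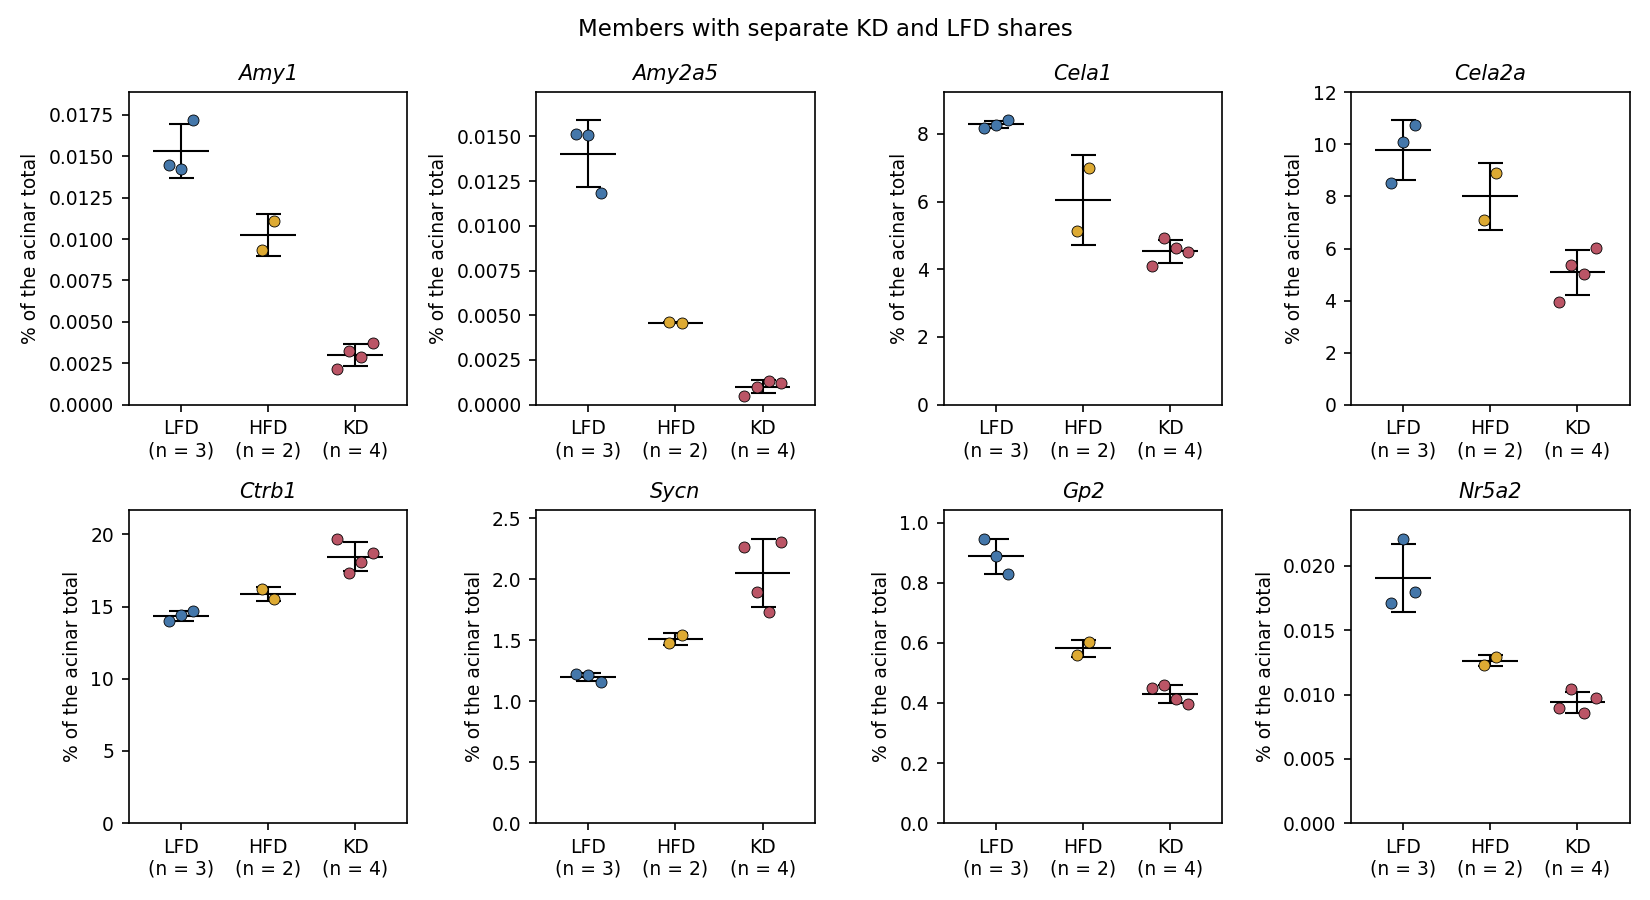
Share of the acinar total of 8 members in each library, in percent on axes that start at 0, with horizontal lines and bars for the mean ± SD. Amy1, Amy2a5, Cela1, Cela2a, Gp2 and Nr5a2 lie lower in every KD library than in any LFD library, and Ctrb1 and Sycn lie higher.

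Over all 33 members, 17 had shares that did not overlap between KD and LFD. Of these 6 were higher on KD (Pnlip, Pnliprp1, Cel, Ctrb1, Cela3b, Sycn) and 11 lower (Pla2g1b, Ctrc, Cela1, Cela2a, Cpa1, Amy1, Amy2a5, Zg16, Gp2, Nr5a2, Gatm). Of all 18548 genes tested, scaled in the same way, 12.6% did not overlap, 0.0863% higher and 12.5% lower; most of those genes are not acinar, and scaling to the acinar total lowers them where acinar RNA is more. The count was 17 to 22 when 1 LFD or KD library was left out, and 19 without KD replicate 4. Leaving out a library cannot make separate groups overlap, so this count could not fall below 17. The exact permutation p was at its smallest value of 0.0286 for 13 of the 33 members compared. These p-values are not adjusted for the number of members.

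Between HFD and LFD, 16 members did not overlap, 6 higher and 10 lower, where 20.6% of all genes did not, 18.9% higher and 1.61% lower. Between KD and HFD, 16 did not overlap, 5 higher and 11 lower, where 62.2% of all genes did not, 0.135% higher and 62.1% lower. No exact test over 2 HFD libraries can reach 0.05 against 3 or 4 others, so these are descriptions. The HFD mean lay between the LFD and KD means for 12 of the 17 members that were apart between KD and LFD, and for 17 of all 33. Picking members with KD and LFD apart makes a mean between them more likely, and no share over all genes was computed. The comparisons of HFD and of KD with LFD share the LFD libraries.

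A fit across all genes with each library scaled to its acinar total, by edgeR's quasi-likelihood test with Benjamini-Hochberg adjustment over 18548 genes, called 1 of the 33 members for KD against LFD, where 2.78% of all genes were called. That member was Amy2a5, which fell by 3.80 on the log2 scale (SE 0.91, edgeR adjusted p = 0.00221). The call was lost without LFD replicate 2 (adjusted p = 0.05004) and without KD replicate 2 (adjusted p = 0.0526), with log2 fold changes of -3.75 and -3.80. Amy1 had a difference of -2.35 on the log2 scale (SE 0.86, adjusted p = 0.128). Only these 2 members had an unadjusted p under 0.05, where 3134 of all 18548 genes did. Without KD replicate 4, Amy1 was called as well (adjusted p = 0.000903), in a fit that called 89.8% of all genes. On the same scale DESeq2 called 2 members, with 5.05% of all genes called, and limma-voom 13, with 96.9% of all genes called. The standard errors of the other members were wide on this scale, as for Cela1 (log2 fold change -0.87, SE 0.99) and Ctrb1 (log2 fold change 0.36, SE 1.03), although their shares varied little within a diet.

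For HFD against LFD the same edgeR fit called 0 members, where 0.0216% of all genes were called. An unadjusted p under 0.05 was reached by 0 members, and by 324 of all 18548 genes. DESeq2 and limma-voom also called 0 members, with 0.00539% and 6.28% of all genes called. For KD against HFD the edgeR fit called 0 members, where 7.41% of all genes were called. An unadjusted p under 0.05 was reached there by 1 member, and by 12198 of all 18548 genes. DESeq2 and limma-voom called 2 each, with 57.9% and 94.3% of all genes called. Amy2a5 had log2 fold changes of -1.61 (SE 1.08) for HFD against LFD and -2.19 (SE 0.93) for KD against HFD.

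An alternative chosen after the data were seen scaled libraries by TMM and held the log2 acinar total of each library as a covariate. That total is the sum of these same members, so their centring near 0 was built into the fit. For KD against LFD it called 8 of the 33 members, where 7.07% of all genes were called. Amy2a5, Amy1, Gp2, Nr5a2, Cela1, Cela2a and Zg16 fell and Sycn rose. The log2 fold changes were -3.70 for Amy2a5 (SE 0.36, edgeR adjusted p = 0.000780), -2.04 for Amy1 (SE 0.17, edgeR adjusted p = 0.000255), -1.12 for Gp2 (SE 0.14, edgeR adjusted p = 0.00119) and -0.93 for Nr5a2 (SE 0.15, edgeR adjusted p = 0.00545). They were -0.78 for Cela1 (edgeR adjusted p = 0.0113), -0.65 for Cela2a (edgeR adjusted p = 0.0160), -0.54 for Zg16 (edgeR adjusted p = 0.0468) and 0.84 for Sycn (edgeR adjusted p = 0.00671). Ctrb1 and Pnlip did not pass, and as large parts of the acinar total they were partly adjusted for themselves. Without KD replicate 4 the calls were Amy1 and Amy2a5, 2 in all, where 0.335% of all genes were called, and without LFD replicate 1 they were 4 (Amy1, Amy2a5, Gp2, Nr5a2), where 0.954% were called. The call of Zg16 was also lost without LFD replicate 2 or any 1 of KD replicates 1 to 3. This fit called 0 members for HFD against LFD and 0 for KD against HFD, where 0% of all genes were called in both. At an unadjusted p under 0.05 there were 12 and 4 members. These counts were not set against all genes, so nothing about the members is read from them. Without LFD replicate 3 the fit called Amy2a5 lower on HFD than on LFD, where 1.29% of all genes were called.

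**Figure D5:**
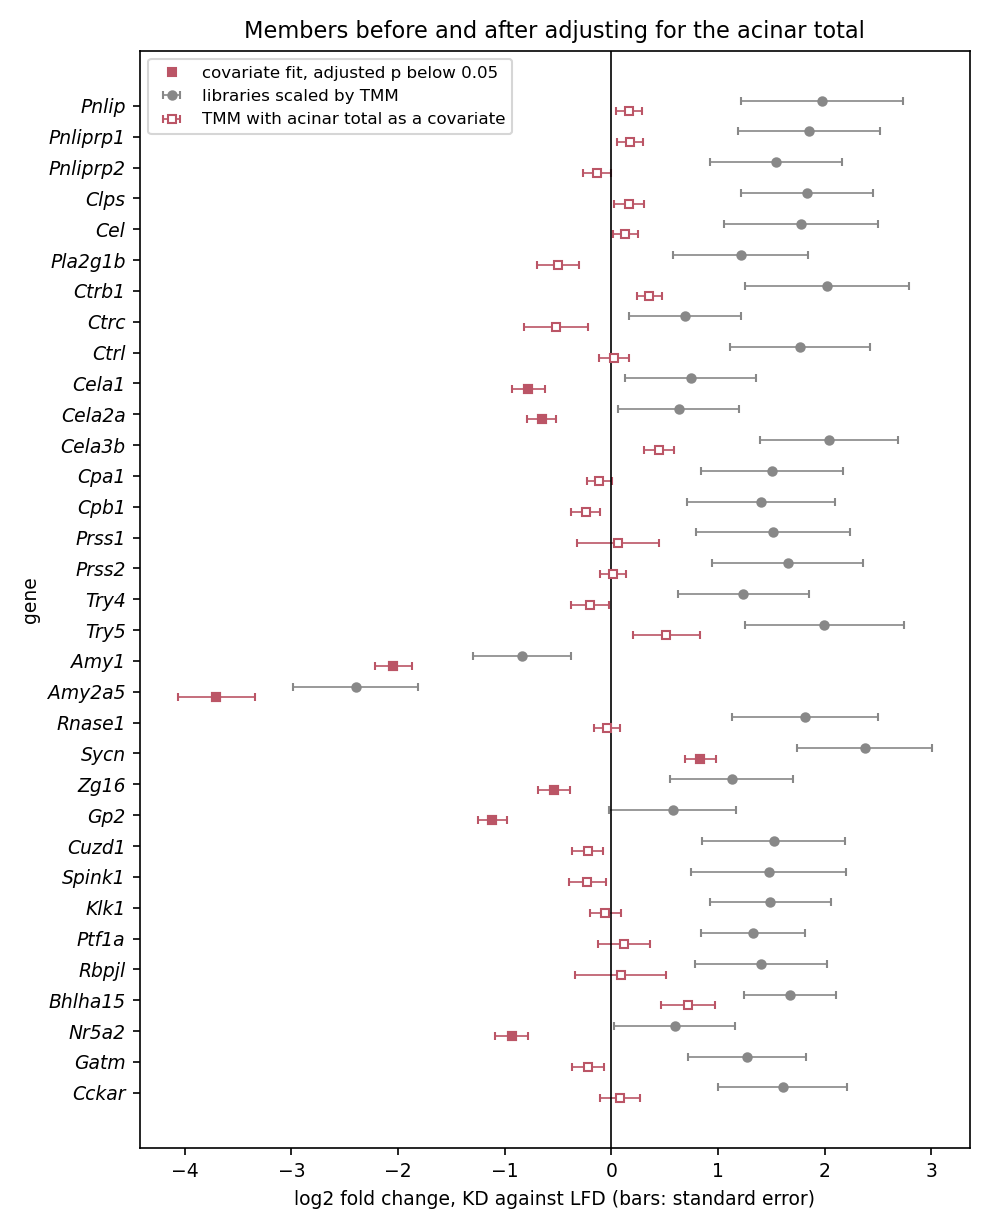
Log2 fold change of KD against LFD for each member, with bars for the standard error, from libraries scaled by TMM (grey circles) and from the same scaling with the acinar total as a covariate (red squares, filled where the edgeR adjusted p is under 0.05). Scaled by TMM, 31 members lie above 0 with wide bars. With the covariate, which is their own sum, the members spread around 0 by construction, and Amy1 and Amy2a5 lie farthest below it.

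In libraries scaled by TMM, which compares members with all other transcripts, most members had higher levels on KD, with wide errors. The median log2 fold change for KD against LFD was 1.51 over the members and -0.02 over all genes, with 31 members above 0 and 2 below. None passed the edgeR test (0 of 33, where 4.12% of all genes were called, 0.981% higher and 3.14% lower). An unadjusted p under 0.05 was reached by 20 members, and by 4215 of all 18548 genes. DESeq2 called 11 members, with 9.56% of all genes called, and limma-voom 3, with 10.1%. With TMM computed without the acinar genes, edgeR called 0 members and 4.33% of all genes. The edgeR count also moved with KD replicate 4: without that library 19 members were called, 18 of them higher, where 7.40% of all genes were called. Pnlip, Pnliprp1, Pnliprp2, Clps, Cel, Ctrb1, Sycn, Zg16, Ptf1a, Bhlha15, Gatm and Cckar were among the 18. The member lower there was Amy2a5 (adjusted p = 0.0495), which was also called without LFD replicate 3 (adjusted p = 0.0309). Scaling to library totals moved the median of all genes to -0.59 and that of the members to 0.72, with 26 above 0 and 7 below. There, 2 members were called for KD against LFD, with 8.91% of all genes, and 4 for KD against HFD, with 8.36%.

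By CPM, Pnlip measured 32940, 19372 and 11847 on LFD, 18054 and 7542 on HFD, and 141390, 64324, 111410 and 18401 on KD, with KD replicate 4 inside the LFD range. The KD and LFD libraries differed by 1.97 on the log2 scale (SE 0.76, adjusted p = 0.155 in edgeR). Amy2a5 measured 51.3, 30.4 and 14.3 CPM on LFD, 7.10 and 3.44 on HFD, and 5.37, 5.30, 12.1 and 2.11 on KD. It was lower in every KD than in every LFD library even on this scale, by 2.40 on the log2 scale (log2 fold change -2.40, SE 0.59, edgeR adjusted p = 0.0580). Bhlha15 measured 121, 120 and 53.1 CPM on LFD, 89.6 and 91.3 on HFD, and 463, 225, 422 and 145 on KD, and it was higher in every KD than in every LFD library (log2 fold change 1.68, SE 0.43, edgeR adjusted p = 0.0599). Bhlha15 and Amy2a5 were the 2 members without overlap on this scale, where 19.7% of all genes did not overlap, 9.69% higher and 10.1% lower. The log2 fold changes of Cela1 (0.74), Cela2a (0.63), Gp2 (0.58) and Nr5a2 (0.59) were small, and were below 0 when libraries were scaled to their totals.

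For HFD against LFD, all 33 members had log2 fold changes below 0, with a median of -0.97 against -0.00 over all genes. None passed the edgeR test (0 of 33, and 0% of all genes). An unadjusted p under 0.05 was reached by 3 members, and by 1853 of all 18548 genes. DESeq2 and limma-voom called 0 members, with 1.44% and 0.0593% of all genes called. With library totals the median was -0.76 against 0.20 over all genes, with 31 members below 0. Without LFD replicate 1 the median was -0.60 with 4 members above 0, without HFD replicate 1 it was -1.60, and without HFD replicate 2 it was -0.65 with 3 above 0. There were 9 members lower in both HFD libraries than in any LFD library, where 27.5% of all genes did not overlap and 14.1% were lower. They included Amy2a5 (log2 fold change -2.60, SE 0.76, edgeR adjusted p = 0.362) and Amy1 (log2 fold change -1.53, SE 0.58, edgeR adjusted p = 0.449).

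For KD against HFD, all 33 members had log2 fold changes above 0, with a median of 2.51 against -0.04 over all genes. With library totals the median was 1.55 against -0.81, with 31 members above 0. None passed the edgeR test (0 of 33, and 0% of all genes), while DESeq2 called 28 and limma-voom 0. An unadjusted p under 0.05 in edgeR was reached by 31 members, and by 4215 of all 18548 genes. DESeq2 called 8.18% of all genes there. The edgeR count was 28 once KD replicate 4 was omitted, where 9.84% of all genes were called. There were 24 members higher in every KD library than in both HFD libraries, where 33.9% of all genes did not overlap and 15.7% were higher. Amy1 and Amy2a5 had the smallest log2 fold changes, 0.69 (SE 0.54) and 0.21 (SE 0.69).

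Levels can be compared between genes only per length. As a mean share of the summed counts per kilobase, Ctrb1 was the highest member on each diet, with 22.2% on LFD, 24.1% on HFD and 26.9% on KD. Prss2 was the second, with 12.3%, 12.4% and 12.2%. Cela2a ranked 3 on LFD with 7.71%, 5 on HFD with 6.20% and 11 on KD with 3.77%. Sycn ranked 13, 11 and 7, with 2.93%, 3.63% and 4.71%. Amy2a5 ranked 31 on LFD and 33, the lowest of the 33 members, on HFD and KD. Its rank is uncertain, as 53.5% of its 50-base stretches occur in another gene. Amy2b and Amy2a1, which were not ranked, had means of 751 and 209 acinar CPM on LFD, against 140 for Amy2a5.

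Other acinar genes were taken from 4 further lists. For KD against LFD scaled by TMM, 0.981% of all genes were higher and 3.14% lower. Of 22 other acinar products, 18 were tested, of which 0 were higher and 1 lower. That gene was Amy2b, with 230, 221 and 57.8 CPM on LFD, 24.5 and 23.05 on HFD, and 16.6, 11.8, 38.7 and 8.83 on KD (edgeR log2 fold change -3.18, SE 0.60, adjusted p = 0.0279). Its call was lost in 4 of the fits without 1 library (adjusted p = 0.0723 without LFD replicate 2, 0.0764 without KD replicate 2, 0.0850 without LFD replicate 1 and 0.0872 without KD replicate 1), and with no filter on low counts (adjusted p = 0.0748). Cela3a, a copy of Cela3b, measured 16.6, 11.4 and 6.47 CPM on LFD, 11.3 and 3.73 on HFD, and 116, 62.4, 97.0 and 18.1 on KD (log2 fold change 2.67, edgeR adjusted p = 0.0642, and 0.0188 without KD replicate 4). Scaled to the acinar total, 2 products were lower on KD, Amy2b (log2 fold change -4.53, edgeR adjusted p = 0.000173) and the trypsinogen-like Gm5771 (log2 fold change -2.97, edgeR adjusted p = 0.0315). On that scale 2.78% of all genes were lower and 0% higher.

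Of 12 genes of granule exocytosis, 1 was higher on KD and 0 lower, where 0.981% and 3.14% of all genes were. Rab3d, a small GTPase of the zymogen granule, measured 140, 117 and 96.9 CPM on LFD, 109 and 92.6 on HFD, and 304, 195, 262 and 162 on KD, so all KD libraries were above all others (log2 fold change 0.97, SE 0.22, edgeR adjusted p = 0.0342). The call held without KD replicate 4, and it was lost, with adjusted p of 0.0533 to 0.0949, whenever any other library was left out. With library totals the log2 fold change of Rab3d was 0.30 (edgeR adjusted p = 0.453). Vamp2, a vesicle SNARE also used by islet cells, measured 49.0, 59.2 and 56.9 CPM on LFD, 54.1 and 52.6 on HFD, and 61.0, 76.3, 77.4 and 82.6 on KD (log2 fold change 0.43, edgeR adjusted p = 0.0902). Its direction turned with library totals.

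None of the 11 tested genes of secretagogue signalling passed for KD against LFD, nor any of 11 other acinar transcription factors. Of all genes, 4.12% passed. Sctr, the secretin receptor, was at 0.797, 1.21 and 1.17 CPM on LFD, 0.600 and 0.126 on HFD, and 0.156, 0.178, 0.267 and 0.269 on KD. Its log2 fold change was -2.26 (edgeR adjusted p = 0.0571). At 1.21 CPM or less in every library, Sctr lay near the floor of these counts. It is also known from duct cells, of whose 9 markers 5 were lower on KD. Vipr1, a receptor for vasoactive intestinal peptide, measured 44.0, 42.3 and 46.9 CPM on LFD, 33.9 and 43.1 on HFD, and 73.0, 55.0, 52.1 and 64.9 on KD (log2 fold change 0.46, edgeR adjusted p = 0.0972), and its direction turned with library totals. Gata4, a factor of acinar development, had a log2 fold change of 1.39 (edgeR adjusted p = 0.133) and measured 12.1 to 51.5 CPM on KD against 8.02 to 15.5 on LFD. Nupr1, a stress-induced chromatin protein of acinar cells, had one of 1.28 (edgeR adjusted p = 0.180) and measured 103 to 404 CPM on KD against 70.5 to 156 on LFD. Without KD replicate 4 both passed (edgeR adjusted p = 0.0242 for Gata4 and 0.0405 for Nupr1).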

How the data were processed

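Trizol and chloroform served to extract the RNA, and stranded libraries were prepared from its poly(A) fraction, per the labels' protocols. The authors deposited raw counts per Ensembl gene. The submitters' processing notes name cutadapt 1.16, STAR 2.7.9a, featureCounts 1.6.3, DESeq2 1.40.2 and the builds GRCm39 and mm39. The strand setting, annotation release and handling of shared reads are not given in the sources used here. The labels give no batch or date, and batch cannot be told apart from diet. Symbols matched 51948 of 56941 identifiers. No library pair of 1 diet agreed within sampling noise (chi-square per degree of freedom at least 231).

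Counts were fitted in edgeR 4.0.16 (R 4.3.3) with robust quasi-likelihood, TMM scaling, filterByExpr (18548 genes, all 33 members included), 1 mean per diet over 9 libraries and Benjamini-Hochberg adjustment at 0.05. A second fit scaled libraries to the summed counts of the members. Shares were compared by exact two-sided permutation of log2 values. DESeq2 1.42.0, limma 3.58.1 (voom), other scalings, filters and totals, the replicate number as a block and the omission of each library were tried. The fits were tested on simulated data. Exon lengths and copies came from GENCODE M21, and promoters from RefSeq on GRCm38.p6, a build other than that of the counts. The members and lists were chosen with earlier results of these data known. Values in every library are given for members called in either edgeR fit and for 18 members set by a rule, and for the 2 genes of lowest p of each wider list. Other members shown in full were chosen after their values were seen. Counting error in the acinar share of each single library was at most 0.0238 percentage points by 95% Wilson intervals. Such intervals leave out the spread between libraries, which ran from 15.1% to 35.6% on LFD and from 20.4% to 60.6% on KD.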

Additional observations from a re-analysis of the deposited data

Results flagged for a closer look

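In 74 checks of groups of 4 KD libraries, 2 members had a library that stood far from the rest, where chance alone gives about 1 in 20 such groups. The Klk1 share of the acinar total was 0.339% in KD replicate 3 and 0.407% to 0.411% in the others, a gap of 0.947 of the whole KD range. The Bhlha15 share was 0.0832% in KD replicate 4, the KD library with the lowest acinar total, against 0.0413% to 0.0463% in the others (0.881 of the range).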

How the results depend on the processing

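Scaled by TMM, edgeR called 0 members for KD against LFD, and 4.12% of all genes. This share of all genes stands in brackets after the counts that follow. The count was 2 with library totals (8.91%), 11 with DESeq2 (9.56%) and 3 with limma-voom (10.1%). It was 1 with at least 5 CPM in 3 libraries (3.31%) and 1 with only the 2 groups compared (3.12%). It was 25 with the replicate block (10.8%) and 0 to 19 without 1 library (0.822% to 7.40%). For HFD against LFD it was 0, and 6 with the replicate block (2.13% of all genes). For KD against HFD it was 0 (0%), and 4 with library totals (8.36%), 28 with DESeq2 (8.18%) and 30 with the replicate block (12.5%). It was 0 to 28 without 1 library (0% to 9.84%). Within the acinar total, 1 member was called for KD against LFD (2.78%). The count was 2 with DESeq2 (5.05%), 13 with limma-voom (96.9%) and 4 with the replicate block (91.3%). It was 8 with the acinar total as a covariate (7.07%) and 0 to 2 without 1 library (0.681% to 89.8%). For KD against HFD it was 0 (7.41%), and 2 with DESeq2 (57.9%), 2 with limma-voom (94.3%) and 3 with the replicate block (94.7%). It was 0 to 2 without 1 library, with 0.142% to 94.4% of all genes called without 1 LFD or KD library. With the replicate block, KD replicate 4 adds nothing to the diet differences, as no other library has its number. The block is thus not separate from leaving that library out. The causes of these moves were not tested.

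Library totals in place of TMM reversed the log2 fold change for KD against LFD of Cela1 (-0.025), Cela2a (-0.12), Gp2 (-0.21), Nr5a2 (-0.18), Vipr1 (-0.11) and Vamp2 (-0.11). Per kilobase, the KD minus LFD difference was 1.43 percentage points for the lipid-digesting share and -2.40 for the protease share. Without 1 library these were 3.48 to 4.42 and -4.50 to -3.42 by counts. The amylase difference was -0.0253 points, and -0.0240 with the wider acinar products in the total, -0.00938 per kilobase, -0.0290 without the trypsinogens, -0.111 with all amylase genes and -0.0256 to -0.0249 without 1 library. The acinar share of counts differed by 20.2 points, by 46.3 per TMM-scaled library size and by 15.2 to 28.6 without 1 library. The log2 Pnlip to Amy2a5 ratio differed by 4.18, and by 3.83 to 4.36 without 1 library. With the replicate block, which leaves out KD replicate 4, it differed by 4.36 (exact p = 0.25, the smallest that 8 sign changes allow).

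The replicate numbers were not shown to pair the libraries: deviations of LFD and KD libraries of the same number correlated at 0.222, -0.0164 and -0.0026 over genes. Among the members, depth limits Ptf1a and Amy2a5 most, with as few as 105 and 47 counts in a library.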
